A study of Rattus norvegicus with 4 samples.

Results

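Macrophages and other white blood cells of the rat dorsal root ganglion (DRG), which holds the cell bodies of sensory neurons, were followed here through 10 marker genes: Ptprc, Itgam, Adgre1, Aif1, Cd68, Csf1r, Cx3cr1, Cd163, Mrc1 and Tyrobp. The genes were taken by name, as the protein-coding rows of the deposited count table that carry each symbol, and make up 10 of its 22293 protein-coding genes and 33506 rows. RNA sequencing libraries came from unsorted lumbar DRGs of wild-type (WT) neonatal Wistar rats, 2 from vehicle-treated and 2 from cisplatin-treated animals, and each library is labelled as a separate rat. Cisplatin, a platinum chemotherapy drug, was given at 0.3 mg/kg by intraperitoneal injection on postnatal days 14 and 16, and controls received the vehicle, PBS. The study's methods place collection at postnatal day 23 and pool 2 to 5 lumbar ganglia per library, but the labels state 16 days post-treatment, and although the methods describe male and female rats, the sex behind each library is not given. No cell type was enriched, so neurons, glia, vessels, connective tissue and any blood left in the tissue all contribute RNA.

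Macrophages live among the neurons and vessels of the DRG, where they clear debris and release factors that act on nociceptors, and monocytes can enter from the blood after nerve injury. Their survival depends on the receptor CSF1R, and they are recognised by surface proteins such as F4/80 (encoded by Adgre1), CD11b (Itgam) and the scavenger receptors CD163 and CD206 (Mrc1). CD45 (Ptprc) lies on nearly all white blood cells and does not separate macrophages from lymphocytes. The comparison of cisplatin with vehicle asked whether the RNA of these markers differed in the ganglion after early-life exposure, and in bulk tissue a larger number of cells and more RNA per cell cannot be told apart.

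Total counts were between 21384801 and 25618417 per library. All 10 markers were among the 14719 protein-coding genes with enough reads for testing. They took only 0.00584% to 0.00641% of the protein-coding counts of a library, so their values rested on few reads: 5 of the 10 had fewer than 100 counts in every library. Libraries of the same group stood as far apart as libraries of different groups, with a chi-square per degree of freedom across genes from 47.8 to 261 over the 6 pairs. Levels are given below as raw counts, as CPM (counts scaled to a common library size) and, wherever genes are compared with each other, as FPKM, which divides by transcript length.

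As a group, the markers did not separate cisplatin from vehicle. Their summed level was 58.1 and 65.6 CPM in the vehicle libraries and 56.9 and 64.5 CPM in the cisplatin libraries, or 61.9 ± 5.28 against 60.7 ± 5.35 (mean ± SD, n = 2 per group), and the groups overlapped. Without Csf1r, which made up 38.2% to 41.4% of the summed counts, the level was 35.8 and 38.4 CPM against 33.8 and 39.8 CPM. Of the 10 genes, 5 had a positive and 5 a negative log2 fold change, with a median of -0.01, the same as the median of all genes tested (-0.01), of which 49.1% were positive. The second library of each group had the higher sum, and it was also the library with more Schwann cell RNA. The summed level of 8 Schwann cell genes, which encode proteins of peripheral myelin and its glia, was 29289 and 66857 CPM in the vehicle and 19476 and 54904 CPM in the cisplatin libraries; the part of this difference in the markers' values was not tested.

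No marker passed the test. With edgeR's quasi-likelihood test, 0 of 10 markers had an adjusted p under 0.05 with at least 1.5-fold change, beside 1 of 14719 genes tested (0.00679%); the lowest adjusted p among the markers was 0.519. That single called gene, LOC100911363, is no leukocyte marker and is named after its values were seen. At an unadjusted p under 0.05 with 1.5-fold change, 1 marker remained, Cd68, beside 1195 genes (8.12%). DESeq2 also called 0 of 10 markers, beside 140 genes (0.951%), and had 0 of 10 at an unadjusted p under 0.05, beside 9.26% of all genes. The plot of fold changes shows how wide the intervals were: they spanned from 1.03 log2 units for Csf1r to 2.49 for Cx3cr1, and 9 of the 10 held 0.

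**Figure D1:**
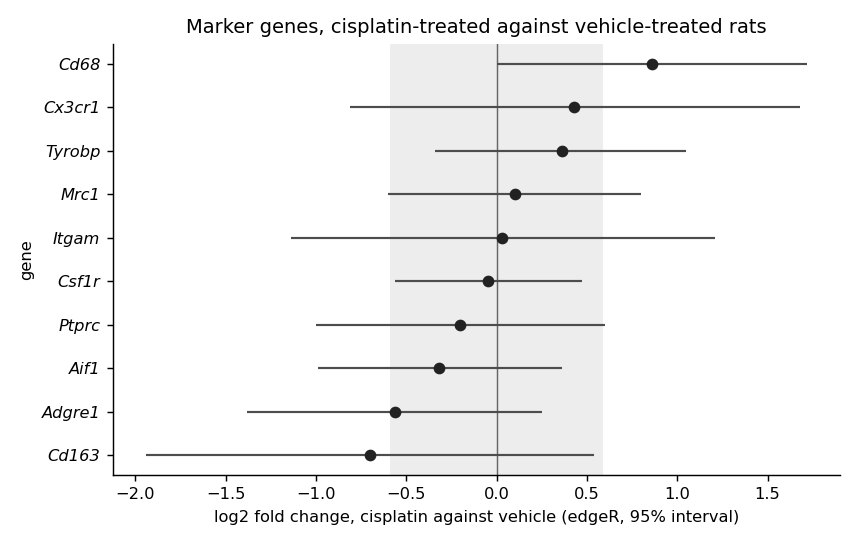
Log2 fold change of each of the 10 marker genes, cisplatin-treated against vehicle-treated rats, with points for the edgeR estimate and lines for its 95% interval (n = 2 libraries per group). The grey band marks changes under 1.5-fold in either direction; Cd68 at 0.86 has the only interval that does not reach below 0, and Cd163 at -0.70 and Cd68 are the only points outside the band.

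Counted by library rather than by test, both cisplatin libraries lay above both vehicle libraries for 2 of 10 markers, Cd68 and Tyrobp, where 20.6% of all genes tested did so. Both lay below for 4 of 10, Ptprc, Adgre1, Aif1 and Cd163, where 21.2% of all genes did. The groups overlapped for the other 4, Itgam, Csf1r, Cx3cr1 and Mrc1. The level of the markers spanned 59.6-fold in mean FPKM, from Tyrobp to Itgam, as the plot of levels by library shows.

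**Figure D2:**
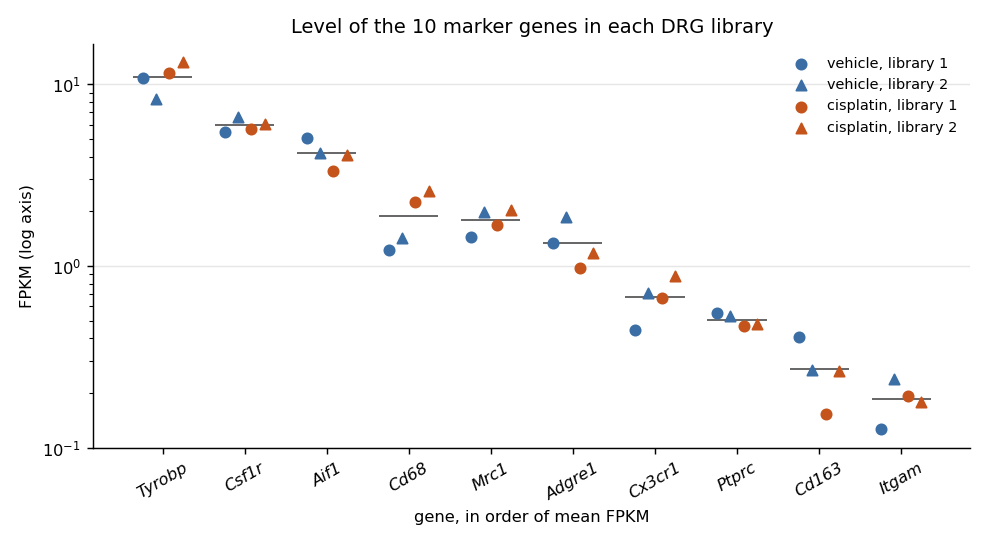
Level of each marker gene in FPKM (log axis) in the 4 libraries, genes ordered by their mean, which is drawn as a bar; circles and triangles are libraries 1 and 2 of each group. Tyrobp, Csf1r and Aif1 stand above the others in every library, Cd68 is the gene whose 2 cisplatin points (2.26 and 2.58) are clearly separated from its vehicle points (1.23 and 1.43), and Cd163 and Itgam lie lowest.

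Tyrobp was the highest marker, at 11 ± 2.01 FPKM (mean ± SD over the 4 libraries), followed by Csf1r at 5.96 ± 0.498 and Aif1 at 4.16 ± 0.699 FPKM. These 3 did not overlap in range with their neighbours in the order. Cd68 (1.88 ± 0.65), Mrc1 (1.78 ± 0.27) and Adgre1 (1.34 ± 0.374) came next, with Cd68 overlapping Mrc1 and Mrc1 overlapping Adgre1, so that the order among them was not resolved, although Mrc1 was above Adgre1 in 4 of 4 libraries. Cx3cr1 (0.674 ± 0.179) and Ptprc (0.505 ± 0.0402) also overlapped, as did Cd163 (0.272 ± 0.103) and Itgam (0.184 ± 0.0461). Among the genes tested, Tyrobp was above 59% and Csf1r above 44.2% in mean FPKM, while Ptprc was above only 7.7% and Itgam above 1.58%.

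Ptprc encodes CD45, the phosphatase that sets the threshold of antigen receptor signalling and marks white blood cells in general (ENSRNOG00000000655, chr13:55061562-55173692 in Rnor_6.0, minus strand). It had 71 and 54 counts in the vehicle and 61 and 58 counts in the cisplatin libraries, or 2.84 and 2.74 against 2.4 and 2.47 CPM. Both cisplatin libraries were lower, but the exact 95% Poisson intervals of all 4 libraries overlapped (2.22 to 3.58 and 2.06 to 3.58 against 1.84 to 3.08 and 1.87 to 3.19 CPM, for counting error only). The log2 fold change was -0.20 (SE 0.32, 95% interval -1.0 to 0.60), and the edgeR adjusted p was 0.856. The upper end of that interval allows a level up to 1.52-fold higher after cisplatin.

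Itgam encodes CD11b, the alpha chain that pairs with the beta-2 integrin chain on monocytes, macrophages and neutrophils (ENSRNOG00000019728, chr1:199495298-199623960, plus strand). It had 24 and 36 counts in the vehicle and 37 and 32 in the cisplatin libraries, or 0.959 and 1.83 against 1.46 and 1.36 CPM. Vehicle library 1 was the lowest and vehicle library 2 the highest, so the cisplatin values fell between them, and the log2 fold change was 0.03 (SE 0.47, interval -1.14 to 1.21, edgeR adjusted p = 0.986). Its row is uncertain for a second reason: it carries the protein name of integrin alpha-D, spans 128663 bases and contains the whole row of Itgax (CD11c), while Itgad has no row of its own. Reads of these neighbouring integrin genes may therefore be counted in it or lost from it. Itgax itself had 35 and 19 counts in the vehicle and 9 and 38 in the cisplatin libraries. Itgb2, the beta-2 chain that Itgam needs to reach the surface, had 35 and 36 against 59 and 52 counts, with both cisplatin libraries above both vehicle libraries and a log2 fold change of 0.49 (SE 0.37, edgeR adjusted p = 0.669).

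Csf1r, the receptor for the macrophage survival factors CSF1 and IL-34, was the best measured marker (ENSRNOG00000018414, chr18:56414488-56458300, plus strand). It had 558 and 535 counts in the vehicle and 588 and 580 in the cisplatin libraries, or 22.3 and 27.2 against 23.1 and 24.7 CPM. The cisplatin values lay between the vehicle values. Its log2 fold change was -0.05 (SE 0.21) with the narrowest interval of the 10, -0.56 to 0.47, which leaves room for a level up to 1.38-fold higher or 1.48-fold lower (edgeR adjusted p = 0.948). Both ligands were present. Il34, which neurons can make, had 1428 and 1363 against 1321 and 1627 counts (log2 fold change -0.06, SE 0.22). Csf1 had 163 and 176 against 126 and 194 counts (-0.23, SE 0.36), again with overlapping groups.

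Cx3cr1, the receptor for fractalkine, a chemokine that neurons and endothelium display, had the fewest reads of the 10 (ENSRNOG00000018509, chr8:128740756-128754514, minus strand). It had 15 and 19 counts in the vehicle and 23 and 28 in the cisplatin libraries, or 0.599 and 0.965 against 0.905 and 1.19 CPM. The groups overlapped once scaled to CPM, and the exact 95% Poisson intervals of the lowest and the highest count, 8.4 to 24.7 and 18.6 to 40.5, overlapped as well. The log2 fold change was 0.43 (SE 0.50, interval -0.81 to 1.68, edgeR adjusted p = 0.789). Its ligand Cx3cl1 had 314 and 116 counts in the vehicle and 185 and 135 in the cisplatin libraries, so that vehicle library 1 held more than any other library.

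Adgre1 encodes F4/80, an adhesion receptor used to stain macrophages (ENSRNOG00000046254, chr9:9431860-9585865, minus strand). It had 111 and 123 counts in the vehicle and 83 and 93 in the cisplatin libraries, or 4.43 and 6.25 against 3.27 and 3.95 CPM. Every cisplatin value was below every vehicle value, with means of 5.34 ± 1.28 and 3.61 ± 0.485 CPM (SD, n = 2 each). The log2 fold change was -0.56 (SE 0.33, interval -1.38 to 0.25, edgeR adjusted p = 0.593), and leaving out any of the 4 libraries moved it between -0.78 and -0.29.

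Cd163, the receptor that takes up haemoglobin bound to haptoglobin, marks perivascular and other resident macrophages (ENSRNOG00000010253, chr4:156752082-156785467, plus strand). It had 44 and 23 counts in the vehicle and 17 and 27 in the cisplatin libraries, or 1.76 and 1.17 against 0.669 and 1.15 CPM. Vehicle library 2 and cisplatin library 2 were almost level, so the separation of the groups rested on the other pair. This was the lowest fold change of the 10, at -0.70 on the log2 scale (SE 0.50, interval -1.94 to 0.54, edgeR adjusted p = 0.652), and it moved between -1.13 and -0.35 when single libraries were left out.

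Mrc1 encodes the mannose receptor CD206, which is likewise found on resident and alternatively activated macrophages (ENSRNOG00000018251, chr17:81352700-81433743, plus strand). Its row overlaps 1 other row in position, and the effect on its counts was not tested. Mrc1 had 194 and 211 counts in the vehicle and 228 and 254 in the cisplatin libraries, or 7.75 and 10.7 against 8.97 and 10.8 CPM. The raw counts were separate, but after scaling the groups overlapped, and the log2 fold change was 0.10 (SE 0.28, interval -0.60 to 0.80, edgeR adjusted p = 0.919). Within a library, the ratio of Cd163 to Mrc1 in FPKM was 0.279 and 0.134 in the vehicle and 0.0916 and 0.131 in the cisplatin libraries, and vehicle library 1 stood above the rest.

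Cd68, a glycoprotein of the lysosome membrane that is abundant in phagocytes, was the marker with the largest difference (ENSRNOG00000037563, chr10:56268720-56270640, minus strand). It had 39 and 36 counts in the vehicle and 73 and 77 in the cisplatin libraries, or 1.56 and 1.83 against 2.87 and 3.27 CPM. Both cisplatin libraries were well above both vehicle libraries, and replicates within each group were close, at 1.69 ± 0.192 and 3.07 ± 0.282 CPM (SD, n = 2 each). The log2 fold change was 0.86 (SE 0.34, interval 0.00 to 1.72), a 1.82-fold difference with an edgeR unadjusted p of 0.0493 and adjusted p of 0.519. DESeq2 gave a log2 fold change of 0.87 with an unadjusted p of 0.0943. Leaving out single libraries kept the edgeR estimate between 0.76 and 0.98. As a ratio that does not depend on how libraries are scaled, Cd68 per Csf1r in FPKM was 0.224 and 0.216 in the vehicle and 0.398 and 0.426 in the cisplatin libraries; this pair was chosen after the values were seen.

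Aif1 encodes IBA1, an actin-binding protein of macrophages and microglia (ENSRNOG00000000853, chr20:5161333-5166448, minus strand). It had 232 and 152 counts in the vehicle and 156 and 177 in the cisplatin libraries, or 9.27 and 7.72 against 6.14 and 7.52 CPM. Cisplatin library 2 was just below vehicle library 2, so the groups were separate by a small margin. The log2 fold change was -0.32 (SE 0.27, interval -0.99 to 0.36, edgeR adjusted p = 0.709), opposite in sign to Cd68.

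Tyrobp encodes DAP12, the adaptor that passes signals from TREM2 and related receptors to the kinase SYK (ENSRNOG00000020845, chr1:88875375-88879303, plus strand). It had 167 and 102 counts in the vehicle and 180 and 191 in the cisplatin libraries, or 6.67 and 5.18 against 7.08 and 8.12 CPM. Vehicle library 1 and cisplatin library 1 lay closer together than the vehicle libraries did to each other, and the log2 fold change was 0.36 (SE 0.28, interval -0.34 to 1.05, edgeR adjusted p = 0.685). A correction for gene length took it to 0.06. Fcer1g, the related adaptor of Fc receptors, had 85 and 138 against 199 and 212 counts (log2 fold change 0.70, SE 0.40, edgeR adjusted p = 0.592), also separate between groups. Trem2 had 24 and 60 against 61 and 58 counts, so only vehicle library 1 was low.

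Because a ratio within a library does not change with library scaling, each marker was also set against the mean log2 FPKM of the 10 in its own library. Cd68 was -0.02 and 0.03 log2 units from that mean in the vehicle and 0.89 and 0.84 in the cisplatin libraries, a difference of 0.86. Adgre1 was at 0.10 and 0.41 in the vehicle and -0.32 and -0.29 in the cisplatin libraries, a difference of -0.56. The cisplatin libraries thus held more Cd68 and less Adgre1 in relation to the other markers, while Csf1r (2.14 and 2.24 against 2.22 and 2.07) overlapped between the groups. Relative to the mean, 3 markers were separate upwards (Cd68, Cx3cr1 and Tyrobp), 3 downwards (Adgre1, Aif1 and Cd163) and 4 overlapped. Set against the same mean, 16.4% of all genes tested were separate upwards and 22.4% downwards. By an exact two-sided permutation test over libraries, p was 0.333 for these 6, the smallest value this test can give with 2 against 2 libraries, so the test cannot reach 0.05 for any single ratio.

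**Figure D3:**
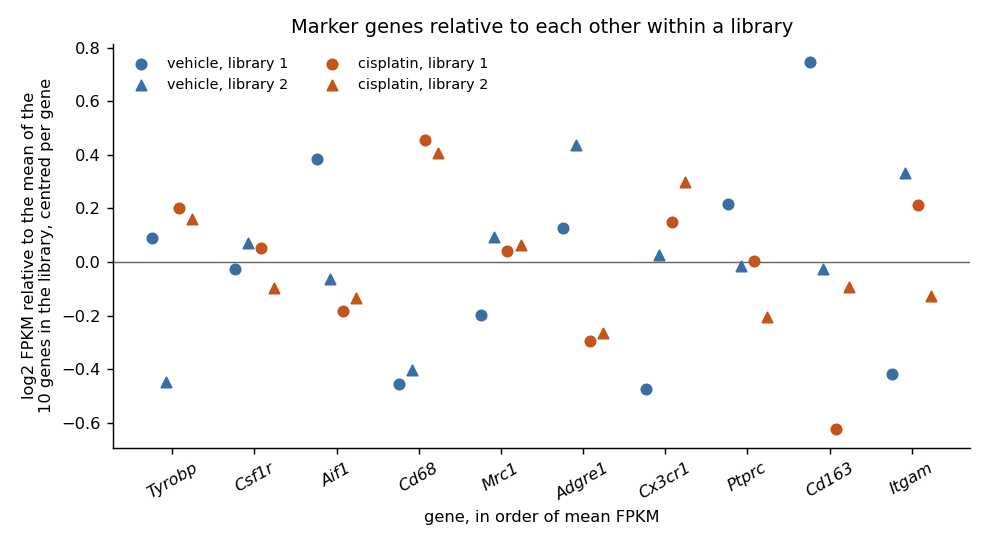
Level of each marker relative to the mean log2 FPKM of the 10 markers in the same library, centred on the gene's mean over the 4 libraries; circles and triangles are libraries 1 and 2 of each group. Cd68 is the gene with close replicates and separate groups (difference 0.86), whereas the 2 vehicle libraries of Tyrobp, Cx3cr1, Cd163 and Itgam lie far apart.

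The mean profile of the markers, centred on 0, was -0.09 and 0.08 in the vehicle and -0.11 and 0.12 log2 CPM in the cisplatin libraries, so that libraries of the same group differed more than the group means did. Among the 5 genes closest to it over the 4 libraries were Cyb561a3, Prickle2, Abhd17c and Fubp1, at root-mean-square distances from 0.00916 to 0.0122 log2 units. With a profile this flat, likeness selected little: 974 of 14709 other genes lay within 0.1 log2 units of it.

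Companion genes were then read from the same edgeR fit, in 25 lists of partners, targets and other cell types holding 232 symbols, of which 180 genes were tested. None of the 180 was called by edgeR (lowest adjusted p 0.509), 12 (6.67%) had an unadjusted p under 0.05 where 9.57% of all genes did, and DESeq2 called 1, the collagen gene Col1a2. Among other genes of all white blood cells, 15 of 19 tested were higher and 4 lower in value, with a median log2 fold change of 0.40, unlike Ptprc at -0.20. In each list, the gene said to lead took the most reads (mean CPM), which favours long transcripts; it is here Cd48, with 2295 and 2872 against 3743 and 3739 counts. Ptprcap, which encodes a protein bound to CD45, had the largest difference, 15 and 5 against 29 and 30 counts (log2 fold change 1.45, SE 0.57, edgeR adjusted p = 0.516). Ptprcap had 79 counts over the 4 libraries, fewer than any marker, the least-read of which, Cx3cr1, had 85. Cd48, by contrast, stood at 93.4 FPKM (mean of 4 libraries), beside 0.505 FPKM for Ptprc. The tissue was unsorted, and which cells made the RNA of this list was not tested.

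Around the CSF1 receptor, 3 of 8 ligand and lineage factor genes were higher and 5 lower (median -0.04). Spi1, which encodes the lineage factor PU.1, had 92 and 94 against 102 and 148 counts, with overlapping groups in CPM. Of the ligands and receptors of monocyte recruitment, 3 of 7 were higher (median -0.03), led by Icam1 (194 and 208 against 171 and 277 counts), although Ccl2 was higher per length (9.57 against 3.4 FPKM, mean of 4 libraries). Ccl2, the monocyte chemoattractant, had 126 and 85 counts in the vehicle and 375 and 202 in the cisplatin libraries, the groups being well separate (log2 fold change 1.32, SE 0.35, edgeR adjusted p = 0.509). Its receptor Ccr2, the defining receptor of inflammatory monocytes, had 0 counts in every library, which allows a level of up to 0.118 to 0.152 CPM at 3 counts per library. The beta-2 integrin subunits were higher for 2 of 3 genes (median 0.41, led by Itgal, with Itgb2 higher per length). The list named Tyrobp partners and downstream kinases was higher for 9 of 11 (median 0.25). Its leading gene was Sirpa, an inhibitory receptor that is neither a Tyrobp partner nor a kinase. Fc gamma receptors were higher for 1 of 2 (median 0.21, led by Fcgr1a). None of these lists had a gene at an unadjusted p under 0.05 in edgeR.

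Other macrophage genes pointed in different directions. Resident and perivascular macrophage genes were higher for 7 of 11 (median 0.33, led by Maf), yet Stab1, a scavenger receptor like Cd163, had 507 and 482 against 416 and 286 counts (log2 fold change -0.65, SE 0.25, edgeR adjusted p = 0.516). Phagocyte complement and lysosome genes were higher for 10 of 13 (median 0.32, led by Ctsb). Among these, the complement gene C1qa had 196 and 188 against 280 and 253 counts (0.33, SE 0.24), and C1qc had 203 and 179 against 358 and 330 (0.71, SE 0.23, edgeR adjusted p = 0.509), both separate between the groups as Cd68 was. Microglia-enriched genes (5 of 8 higher, median 0.07, led by Olfml3) and genes of alternatively activated macrophages (3 of 4 higher, median 0.09, led by Tgfb1) were split. Genes of classically activated macrophages (3 of 6 higher, median -0.17, led by Cxcl10) included Nlrp3, the inflammasome sensor, at 36 and 29 against 12 and 9 counts (-1.75, SE 0.47, edgeR adjusted p = 0.509).

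Markers of other blood cells were read beside these values. Neutrophil and blood monocyte genes were higher for 10 of 11 tested (median 0.74), and their summed level was 55.2 and 42.9 CPM in the vehicle and 62.5 and 102 CPM in the cisplatin libraries. S100a9 led the list (373 and 216 against 400 and 621 counts), whereas Cxcr2, a defining receptor of neutrophils, had at most 2 counts. Ngp had 184 and 153 against 255 and 491, Lcn2 had 116 and 116 against 192 and 324, and Cd14, the monocyte co-receptor for endotoxin, 31 and 58 against 70 and 90 counts. Neutrophils also carry Ptprc, Itgam and Tyrobp, and their part in the markers' values was not tested. B cell genes were higher for 4 of 6 (median 0.38, led by Cd79b), with Pax5 at 29 and 23 against 95 and 68 counts (log2 fold change 1.51, SE 0.36, edgeR adjusted p = 0.509), and their summed level was 8.79 and 5.03 against 11.5 and 8.97 CPM, so that vehicle library 1 and cisplatin library 2 were nearly level. The T cell list had 4 of 13 genes tested (1 of 4 higher, median -0.13, led by Cd4), and of the CD3 chains that define T cells, Cd3d and Cd3e had at most 4 counts in any library whereas Cd3g had 42 and 74 against 35 and 77 counts and the highest FPKM of the list. Natural killer cell genes had 1 of 7 tested (Nkg7, 0.94). Mast cell genes were higher for 4 of 7 (median 0.11, led by Kit). Kit stood far above the rest of its list, at means of 56.5 CPM in the vehicle and 46.4 CPM in the cisplatin libraries. It is therefore not read as a measure of mast cells, and which cells made it was not tested. Dendritic cell genes were higher for 2 of 4 (median -0.11, led by Flt3, with Cd83 higher per length).

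**Figure D4:**
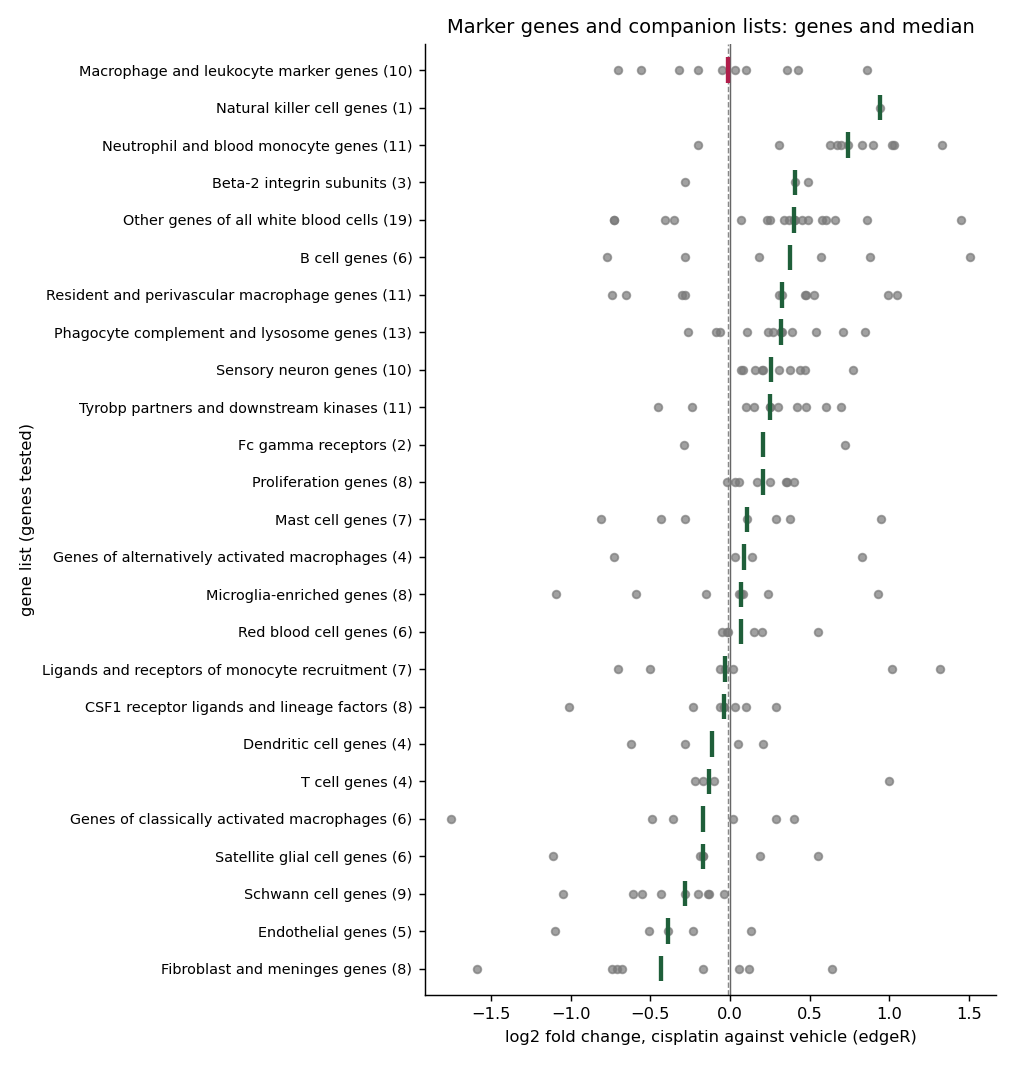
Log2 fold change of every gene tested in the 10 marker genes and the companion lists described, with a thick bar at the list median and a dashed line at the median of all genes tested (-0.01); the number tested follows each name. The marker genes centre on -0.01, neutrophil and blood monocyte genes on 0.74 and fibroblast and meninges genes on -0.43.

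The remaining lists describe the tissue around the macrophages. Red blood cell genes were present in every library (summed level 2832 and 2888 against 3549 and 2970 CPM, 3 of 6 higher, median 0.07, led by Hba1). Sensory neuron genes were higher for 10 of 10 (median 0.26, led by Nefl) and Schwann cell genes for 0 of 9 (median -0.28), but with single libraries left out the medians ranged from -0.03 to 0.49 and from -1.15 to 0.43. Satellite glial cell genes (2 of 6 higher, median -0.17, led by Apoe) included Kcnj10 at 492 and 247 against 201 and 165 counts, and endothelial genes were higher for 1 of 5 (median -0.39, led by Vwf, with Cdh5 higher per length). Fibroblast and meninges genes were higher for 3 of 8 (median -0.43, led by Col1a1, with Col3a1 higher per length), with Col1a2 at 21429 and 18616 against 5046 and 9425 counts. Proliferation genes were higher for 7 of 8 (median 0.21, led by Pcna).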

How the data were processed

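Per the labels and the study's methods, the authors mapped the reads with HISAT2 2.0.5 to Rnor_6.0 and counted them per gene with featureCounts 1.5.0-p3; whether strand was used is not given in the sources used here. The deposited tables hold raw counts per gene and FPKM, which the authors scaled by normalised library size and gene length. Here, protein-coding counts kept by filterByExpr were fitted with edgeR 4.0.16 (TMM, quasi-likelihood, no block; R 4.3.3), and called genes changed at least 1.5-fold whose p, adjusted by Benjamini-Hochberg over all genes tested, was under 0.05. Intervals are 95%. DESeq2 1.42.0 and limma 3.58.1, other filters, scalings and single left-out libraries were alternatives. The step was tested on simulated counts, where edgeR recovered 197 of 200 genes changed 4-fold for cisplatin against vehicle (14599 genes). The simulated libraries varied less than the real ones, and the largest marker difference was 1.82-fold (Cd68). That recovery therefore does not show how often a change of the markers' size would be called. With 2 libraries per group, p-values of the fits rest on the spread between these libraries. In each fit, a gene's own spread was drawn toward that of other genes, so its p-value does not measure its own spread alone.

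The members and lists were chosen with earlier results of these data known. All 10 members are named. A companion gene is named if it was called, had an unadjusted p under 0.05 with 1.5-fold change, is a direct partner of a member, or is its list's most abundant gene. Of 232 list symbols, 221 had a protein-coding row. Totals were 23267950 and 21384801 counts (vehicle) and 25282170 and 25618417 (cisplatin). Some companion genes and 1 of the 25 lists are not reported here.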

Additional observations from a re-analysis of the deposited data

How the results depend on the processing

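No marker was called under any of 17 alternatives, of which 2 were chosen after seeing the data (the earlier form of edgeR's quasi-likelihood fit and DESeq2 on all protein-coding genes). Of 170 marker fold changes recomputed, 10 reversed in sign, all of them in Ptprc, Itgam, Csf1r or Mrc1, whose differences were near 0. Correcting for gene length turned Ptprc to 0.01 and Csf1r to 0.09 on the log2 scale, took Tyrobp from 0.36 to 0.06, and moved Itgam from 0.03 to 0.35 and Mrc1 from 0.10 to 0.32. With single libraries left out, Itgam ranged from -0.37 to 0.56, Csf1r from -0.18 to 0.10 and Mrc1 from -0.11 to 0.35. The markers' median ranged from -0.17 (without vehicle library 1) to 0.15 (without vehicle library 2). Every such fit leaves 1 library in a group, and edgeR then assumes that it varies like the other group. The cause of these moves was not tested beyond the loss of a library. Cd68 kept an unadjusted p under 0.05 with DESeq2 size factors in edgeR, with the minimum of 10 counts, with the block and with limma under either pseudocount, 1 or 0.1, which called 0 markers. It lost it with either DESeq2 fit, library size alone, no filter, all gene biotypes, both gene length corrections, the earlier quasi-likelihood form and each left-out library. The least-read markers, Itgam, Cx3cr1, Cd163, Ptprc and Cd68, had 15 to 77 counts per library; how far depth or the spread between libraries sets the intervals was not tested.

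Among all genes, edgeR called 2 when no filter was used and 2 when each library had to hold 10 counts or more, limma called 4 on log2(FPKM + 1) and 0 on log2(FPKM + 0.1), DESeq2 called 140, or 99 on all protein-coding genes, and leaving out single libraries gave 0 to 7. With the replicate number of the titles as a replicate block, edgeR called 1665 genes, or 1082 with the gene length correction as well. No marker was among them, the lowest adjusted p of a marker being 0.108 and 0.212; under the other alternatives it was between 0.482 and 0.995. With both corrections Ptprc was at 0.01 and Csf1r at 0.10. The numbers belong to different rats, and with only 2 pairs a correlation of 0.444 across genes between the deviations of the second from the first library in each group does not establish pairing.

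Set against Ptprc alone instead of the mean of the markers, the difference was -0.35 for Adgre1, 1.06 for Cd68, 0.15 for Csf1r and 0.31 for Mrc1, and with log2(FPKM + 0.1) it was 0.80 for Cd68. The list medians moved by more than their replicate spread as follows. The phagocyte list was at 0.26 with library size alone, 0.27 with limma on log2(FPKM + 1), 0.23 with the gene length correction and 0.22 with the block added. Other genes of all white blood cells were at 0.24 and 0.27 under those last 2 settings, Tyrobp partners at 0.37 and 0.38, and satellite glial cell genes at -0.03 and -0.03. With limma on log2(FPKM + 1), beta-2 integrins were at 0.12, Tyrobp partners at 0.10, resident macrophage genes at 0.10 and the natural killer cell gene at 0.27. Under that minimum of 10 counts, classically activated macrophage genes were at 0.29 and alternatively activated ones at 0.43, because fewer genes were tested, and the natural killer list had no gene left.

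Leaving out single libraries gave medians from 0.23 to 0.63 for other genes of all white blood cells, -0.34 to 0.29 for monocyte recruitment, 0.15 to 0.70 for beta-2 integrins, 0.27 to 0.48 for Tyrobp partners, -0.29 to 1.02 for Fc gamma receptors, 0.25 to 0.51 for resident macrophage genes, -0.14 to 0.10 for microglia-enriched genes, 0.17 to 0.39 for phagocyte genes, -0.24 to 0.49 for alternatively activated macrophage genes and 0.37 to 1.01 for neutrophil and monocyte genes. The range was -0.33 to 0.42 for T cell genes, 0.05 to 1.17 for B cell genes, 0.55 to 1.60 for the natural killer cell gene, -0.27 to -0.06 for dendritic cell genes, -0.14 to 0.28 for red blood cell genes, 0.06 to 0.31 for proliferation genes and -0.24 to 0.08 for satellite glial cell genes. It was -0.20 to 0.09 for CSF1 receptor ligands and lineage factors, -0.30 to 0.01 for classically activated macrophage genes, -0.27 to 0.43 for mast cell genes, -0.03 to 0.49 for sensory neuron genes, -1.15 to 0.43 for Schwann cell genes, -0.65 to -0.16 for endothelial genes and -0.85 to -0.10 for fibroblast and meninges genes.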
